A study of Mus musculus with 4 samples.

Results

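The immunity-related GTPases (Irg proteins) are a family of interferon-inducible GTPases of the mouse. The genes described here are *Igtp* (also named *Irgm3*), *Irgm1*, *Irgm2*, *Iigp1*, *Tgtp1*, *Tgtp2*, *Gm12185* and *Ifi47*. They were chosen by name, with earlier results of these data known, and all 8 were found among the 39186 genes of the deposited table. RNA-seq had been performed on LSK cells (Lin- Sca-1+ c-Kit+ stem and progenitor cells) sorted from fetal livers of C57BL/6 embryos, with 2 *Pich*-KO and 2 *Pich*-WT samples. *Pich* (*Ercc6l*), an X-linked gene, encodes a DNA translocase that binds ultrafine anaphase bridges. The *Pich*-KO allele is a constitutive TALEN deletion of a few bases near the beginning of exon 2, so that every cell of the embryo carries it, and the *Pich*-WT embryos carried no other allele or treatment in the labels. The study collected fetal livers at mid-gestation, but the sample labels give neither the age nor the sex of the embryos. The labels do not say whether samples came from separate embryos or pools. The p-values below therefore measure only the spread between these samples, which may be partly technical.

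Irg proteins are divided by the first nucleotide-binding motif of the GTPase domain. Members with the canonical glycine-lysine-serine motif (GKS) are effectors, which load onto the vacuole of an intracellular parasite or bacterium and help to break its membrane. Members with methionine in place of the lysine (GMS, the Irgm group) sit on the cell's own membranes and keep the effectors inactive there. The genes are transcribed in response to interferon-γ through the GAS element and in response to type I interferon through the ISRE, bound by ISGF3. In blood stem cells *Irgm1* is known for limiting the damage that chronic interferon signalling does to self-renewal.

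The motif separates the 8 genes in their coding sequence, and a stretch of 24 bases over it is shown for each class because the results are ordered by these roles. It was read from the longest open reading frame of each gene's GENCODE M21 transcripts, and the capitals mark the codon for methionine or lysine.
*Irgm1*, *Irgm2* and *Igtp*, GMS: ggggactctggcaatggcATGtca
*Tgtp1* and *Tgtp2*, GKS: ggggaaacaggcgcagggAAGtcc
*Ifi47*, GKS: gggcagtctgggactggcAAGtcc
*Gm12185*, GKS: ggggagactggggctggaAAGtcc
The 3 GMS genes share the whole stretch, at codons 83 to 90 of *Irgm1* and *Irgm2* and 91 to 98 of *Igtp*. The stretch shown for *Gm12185* covers codons 68 to 75 of an open reading frame of 835 codons, against 407 to 423 codons in the other 7 genes. *Iigp1* also had a GKS motif, at codons 76 to 83. *Tgtp1* and *Tgtp2* were 99.7% identical over 1248 bases of coding sequence, and *Igtp* and *Irgm2* were 73.0% identical.

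The promoters of most of the genes carry the elements named above, and the bases around them are shown because the members are described as interferon-inducible. Sequences are from RefSeq (GRCm38.p6) over 250 bases before and 50 bases after the annotated transcription start, and a window was found for 7 of the 8 genes, with *Iigp1* not matched. The ISRE was searched as GAAA followed, after 2 bases of any kind, by GAAA again, and the GAS element as TTCNNNGAA, on both strands. Capitals mark the matched run, written 5′ to 3′ on the strand of the gene.
*Irgm1*, chr11:48871425-48871460, minus strand: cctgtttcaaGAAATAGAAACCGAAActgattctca
*Gm12185*, chr11:48927238-48927278, minus strand: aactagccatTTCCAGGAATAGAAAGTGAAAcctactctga
*Tgtp1*, chr11:48992304-48992344, minus strand: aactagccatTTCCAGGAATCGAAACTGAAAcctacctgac
*Tgtp2*, chr11:49064263-49064303, minus strand: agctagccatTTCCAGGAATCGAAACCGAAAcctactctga
*Igtp*, chr11:58199501-58199541, plus strand: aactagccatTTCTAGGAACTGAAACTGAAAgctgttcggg
*Irgm2*, chr11:58214892-58214932, plus strand: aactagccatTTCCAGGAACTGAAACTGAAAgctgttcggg
In GENCODE M21 the *Irgm1* run falls in an exon of the transcript *Irgm1-203*, and those of *Gm12185*, *Tgtp1* and *Irgm2* fall in introns of the same gene. Those of *Tgtp1* and *Tgtp2* fall in introns of *Olfr56* on the opposite strand, and that of *Igtp* lies before the gene.

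An ISRE was present in 6 of the 7 member promoters, against 1079 of 27025 genes with a promoter sequence (3.99%). A GAS element was present in 5 of the 7, against 2582 genes (9.55%). In those 5 promoters, of *Gm12185*, *Tgtp1*, *Tgtp2*, *Igtp* and *Irgm2*, the GAS element was followed by the ISRE their first bases 11 apart and the matches not overlapping, and no other gene of the 27025 held this arrangement. The spacing was chosen after these promoters had been read, so the count is a description. A GAS element and an ISRE within 30 bases of each other, in either order, were found in 51 genes (0.189%). *Irgm1* differed in having 2 overlapping ISREs, 30 to 15 bases before its start, and no GAS element. *Ifi47* had neither element in this window. Some of the windows were alike over their whole length, with 96.6% identity over 295 aligned bases between *Gm12185* and *Tgtp2* and 92.1% over 265 between *Igtp* and *Irgm2*.

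**Figure D1:**
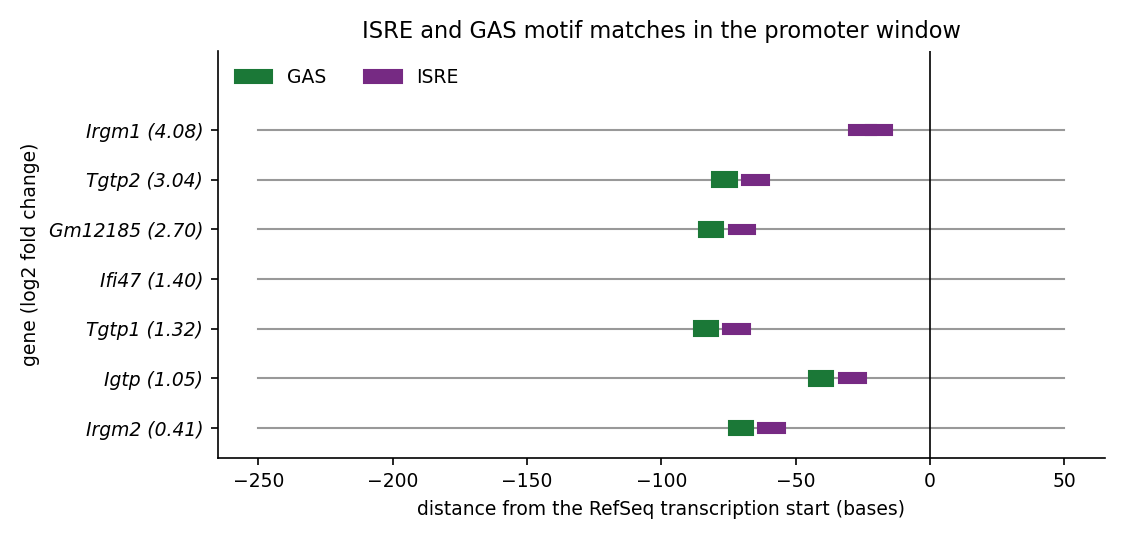
Positions of ISRE (purple) and GAS (green) matches, in bases from the RefSeq transcription start, for the 7 Irg genes with a promoter window, ordered by log2 fold change (in brackets, *Pich*-KO minus *Pich*-WT). Of the genes with a GAS element next to an ISRE, *Tgtp2* had a log2 fold change of 3.04 and *Irgm2* of 0.41.

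Each sample had 14703215 to 20933919 reads on genes, and the values below are normalized counts, that is, reads divided by a size factor for the sample. *Ercc6l* was detected in every sample, with 1142 and 1232 normalized counts in the *Pich*-KO and 772 and 661 in the *Pich*-WT samples. Its transcript is still counted after so small a deletion, so this gene does not check the genotype labels. *Ercc6l* was itself higher in the *Pich*-KO samples, with a log2 fold change of 0.73 (limma adjusted p = 0.00887), and the cause was not tested. *Kit*, *Ly6a* and *Cd34*, which mark LSK cells, were present in all samples. *Pich*-WT sample 2 stood apart in having 0 reads on 4 Y-linked genes and 699 on *Xist*, against 1607 to 2848 and 4 to 13 in the others. The 2 *Pich*-WT samples therefore did not come from the same material. The part of embryo sex in the levels of the Irg genes was not tested.

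With *Pich* deleted, 5 of the 8 Irg genes were higher, 3 did not pass the test and 0 were lower, since all 8 had a positive log2 fold change. The test was limma on log2(normalized count + 1) with Benjamini-Hochberg adjustment over 32428 genes and a threshold of 0.05. Of all genes tested, 7.58% were higher and 9.6% were lower. The genes that rose were *Irgm1*, *Tgtp2*, *Gm12185*, *Ifi47* and *Igtp*, and *Tgtp1*, *Iigp1* and *Irgm2* did not pass. *Tgtp2*, *Gm12185* and *Igtp* are among the interferon response genes that the study displayed from these same samples, so they are not independent evidence of the direction. All 8 were chosen with earlier results of these data known, so the counts are a description. The median log2 fold change of the 8 genes was 1.37, with a range of 0.41 to 4.08, against a median of 0.02 over all genes. Without *Pich*-KO sample 1 the members' median was 0.87, and without *Pich*-KO sample 2 it was 2.12. In 7 of the 8 genes both *Pich*-KO samples lay above both *Pich*-WT samples, as did 28.9% of all genes. Upper-quartile scaling over all genes moved the median of all genes to 0.46, gave 6362 higher against 1887 lower calls in place of 2459 against 3113, and called all 8 members. Relative to that median, the members' median was 1.40, and relative to the median of the fit reported here it was 1.34.

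**Figure D2:**
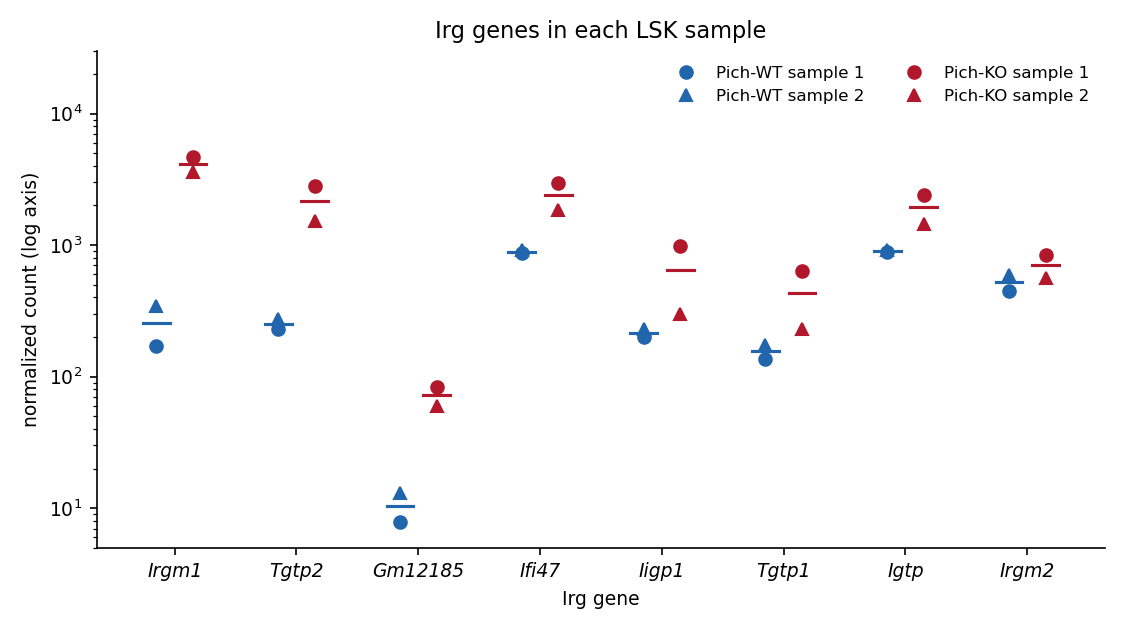
Normalized counts on a log axis for each Irg gene in the 2 *Pich*-WT (blue) and 2 *Pich*-KO (red) samples, with circles for sample 1, triangles for sample 2 and bars for group means. Sample 1 is the higher *Pich*-KO sample for every gene, and only *Irgm2* has overlapping groups.

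Among the regulators of the GMS group, *Irgm1* moved most. *Irgm1* (ENSMUSG00000046879, chr11:48861968-48871683, minus strand) had 4647 and 3618 normalized counts in *Pich*-KO samples 1 and 2, and 170 and 344 in *Pich*-WT samples 1 and 2. The *Pich*-WT samples differed from each other, by -1.01 on the log2 scale (sample 1 minus sample 2), and both lay far below the *Pich*-KO samples. The means were 4133 ± 728 and 257 ± 123 (SD, n = 2), a 16.1-fold difference, and the log2 fold change was 4.08 ± 0.30 (SE, limma adjusted p = 0.000113). It ranked 12 of 32428 genes tested by log2 fold change.

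*Igtp* (ENSMUSG00000078853, chr11:58199556-58207591, plus strand), a regulator found on lipid droplets and the endoplasmic reticulum, had 2408 and 1458 normalized counts in the *Pich*-KO and 893 and 919 in the *Pich*-WT samples. Both *Pich*-KO samples were higher, by unequal amounts. The log2 fold change was 1.05 ± 0.22 (SE, limma adjusted p = 0.0123), the means being 1933 ± 672 and 906 ± 18.2. Without *Pich*-KO sample 1 it was 0.69, and without a filter on low values the adjusted p was 0.0561.

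*Irgm2* (ENSMUSG00000069874, chr11:58199618-58222782, plus strand), a regulator associated with the Golgi apparatus, had 845 and 558 normalized counts in the *Pich*-KO and 450 and 596 in the *Pich*-WT samples. The groups overlapped, since *Pich*-WT sample 2 was above *Pich*-KO sample 2. A log2 fold change of 0.41 ± 0.23 was obtained (SE, limma adjusted p = 0.301). Leaving out *Pich*-KO sample 1 gave 0.11.

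Of the effectors, *Tgtp2* had the largest change. *Tgtp2* (ENSMUSG00000078921, chr11:49057194-49064206, minus strand) had 2805 and 1515 normalized counts in the *Pich*-KO and 231 and 272 in the *Pich*-WT samples, with a log2 fold change of 3.04 ± 0.27 (SE, limma adjusted p = 0.000253). The means of 2160 ± 912 and 251 ± 29.3 differed 8.60-fold. *Tgtp1* (ENSMUSG00000078922, chr11:48985327-48994172, minus strand), its near-identical copy, which also encodes the effector Irgb6, had 640 and 232 against 136 and 175. The *Pich*-KO samples of *Tgtp1* differed 2.76-fold, and the log2 fold change of 1.32 ± 0.42 did not pass (SE, limma adjusted p = 0.0736). Without *Pich*-KO sample 1 it was 0.58 and without sample 2 it was 2.05.

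How *Tgtp1* and *Tgtp2* divide their reads is uncertain. Of the 50-base stretches in their annotated transcripts, 18.8% of those of *Tgtp1* and 13.4% of those of *Tgtp2* occurred in no other gene, against 80.5% to 99.6% for the other 6 members. With the reads of the 2 genes summed, the values were 3446 and 1747 against 367 and 447, and the log2 fold change was 2.60 ± 0.28 (SE, limma adjusted p = 0.000671). The ratio of *Tgtp2* to *Tgtp1* was 4.38 and 6.53 in the *Pich*-KO and 1.70 and 1.55 in the *Pich*-WT samples.

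*Ifi47* (ENSMUSG00000078920, chr11:49076587-49096974, plus strand), a GKS protein also named Irgd, had 2957 and 1864 normalized counts in the *Pich*-KO and 873 and 911 in the *Pich*-WT samples. The lower *Pich*-KO sample was still 2.09 times the *Pich*-WT mean. The log2 fold change was 1.40 ± 0.20 (SE, limma adjusted p = 0.00244), from means of 2411 ± 773 and 892 ± 26.9.

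*Iigp1* (ENSMUSG00000054072, chr18:60376029-60392627, plus strand), also named Irga6, is an effector known for restricting *Toxoplasma*. It had 989 and 299 normalized counts in the *Pich*-KO and 202 and 229 in the *Pich*-WT samples. The *Pich*-KO samples differed 3.31-fold, the widest split of the 8 genes, and the second was 1.39 times the *Pich*-WT mean. The log2 fold change of 1.34 ± 0.47 did not pass (SE, limma adjusted p = 0.0976), and was 0.47 without *Pich*-KO sample 1 and 2.20 without sample 2.

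*Gm12185* (ENSMUSG00000048852, chr11:48904656-48992226, minus strand) had the fewest reads, with 77 and 53 in the *Pich*-KO and 10 and 13 in the *Pich*-WT samples. As normalized counts these were 84.0 and 60.2 against 7.82 and 13.0. The log2 fold change was 2.70 ± 0.43 (SE, limma adjusted p = 0.00379), with means of 72.1 ± 16.8 and 10.4 ± 3.67. In its annotated transcripts 19.5% of the 50-base stretches also occurred in other genes. Of all its stretches, 11.4% were found in *Gm5431*, 8.51% in *9930111J21Rik1*, 3.21% in *Tgtp1* and 2.57% in *Tgtp2*. The part of reads from such genes in its counts was not tested. The annotated exons of *Gm12185* overlap those of *Tgtp1* on the same strand by 223 bases, which is 3.99% of *Gm12185*. The overlap of *Igtp* with *Irgm2* is 162 bases (4.39% of *Irgm2*), and that of *Ifi47* with *Gm12188* on the opposite strand is 106 bases. *Igtp* and *Irgm2* also lie on the same strand as each other, and the library kit does not mark strand. Reads in these overlaps therefore cannot be assigned.

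**Figure D3:**
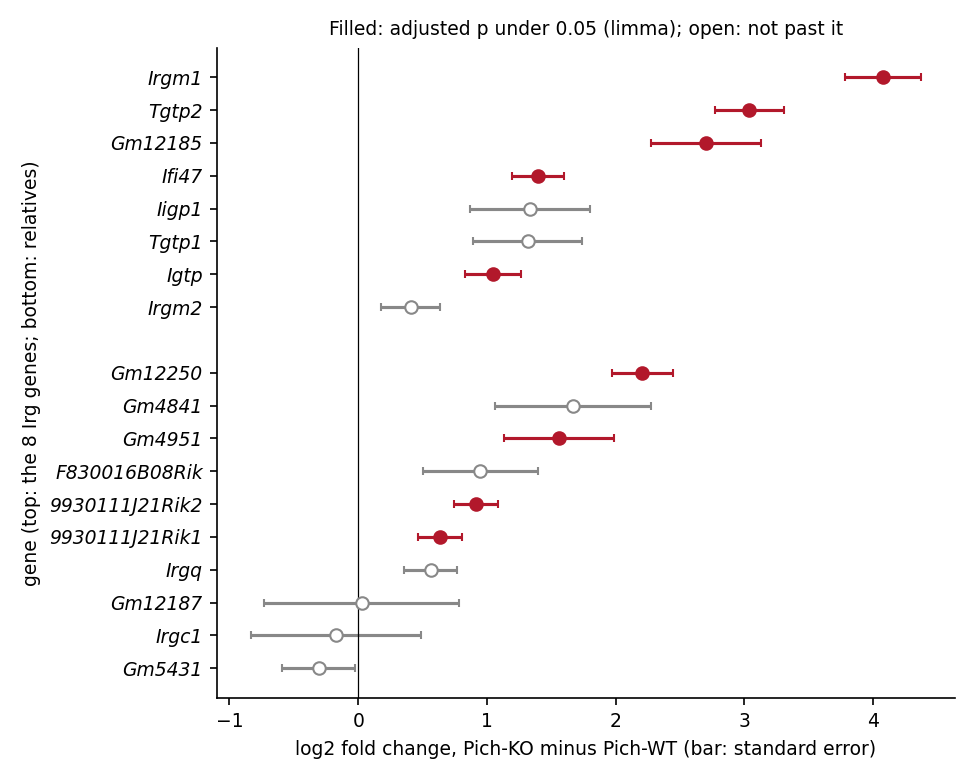
Log2 fold change (*Pich*-KO minus *Pich*-WT) with its standard error from limma for the 8 Irg genes (top) and 10 other genes of the family (bottom). Filled red points had an adjusted p under 0.05, and open grey points did not. The 8 members range from 0.41 for *Irgm2* to 4.08 for *Irgm1*.

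Among the *Pich*-KO samples, sample 1 was the higher for all 8 genes, with a median log2 difference of 0.69, against -0.01 over all genes. The excess was smallest for *Irgm1* (1.28-fold) and largest for *Iigp1* (3.31-fold). Other lists given below shared it. Sample 1 was the higher for all 12 LSK and stem cell markers (median 0.62) and all 10 endothelial markers (0.96). The same held for 9 of the 10 other Irg genes (0.56) and 8 of 12 macrophage markers (0.17). Sample 1 was also the higher for 15 of 20 interferon signalling genes (0.20) and 11 of 20 vacuole targeting genes (0.04). It was the higher for only 2 of 12 erythroid, 3 of 10 hepatocyte and 3 of 12 B, T and NK cell markers. When the reads recovered from these values were tested with edgeR (quasi-likelihood, Benjamini-Hochberg adjustment over 16608 genes), 7 of the 8 members were higher, *Tgtp1* (adjusted p = 0.0385) and *Iigp1* (adjusted p = 0.0438) included, and *Irgm2* was not (adjusted p = 0.182). The background of that test was also wider, with 18.6% of genes higher and 20.7% lower. Leaving out each sample in turn, edgeR called 5, 8, 5 and 7 members without *Pich*-KO 1, *Pich*-KO 2, *Pich*-WT 1 and *Pich*-WT 2, and *Irgm1*, *Tgtp2*, *Gm12185*, *Ifi47* and *Igtp* were higher in each of these 4 fits. In the same fits 20.2%, 17.2%, 9.67% and 9.62% of all genes tested were higher, and the lone sample of an arm was assumed to vary like the other group. With limma, 0 members and 0 of all genes passed in any of the 4 fits, which leave 1 residual degree of freedom, and 5, 7, 3 and 3 members had an unadjusted p under 0.05 in that order, as did 26.5%, 23.5%, 18.4% and 17.8% of all genes. The exact two-sided permutation test of a single gene could not go below p = 0.333 with 2 samples against 2.

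Members can be compared with each other only per length, here as normalized counts per kb of the deposited gene length. The levels of *Tgtp1* and *Tgtp2*, and their shares given further on, rest on the uncertain division of their reads. In the *Pich*-WT samples the levels were 448 ± 9.0 for *Igtp*, 361 ± 10.9 for *Ifi47*, 142 ± 27.9 for *Irgm2*, 85.5 ± 9.98 for *Tgtp2*, 69.0 ± 6.20 for *Iigp1*, 48.5 ± 8.61 for *Tgtp1*, 44.3 ± 21.1 for *Irgm1* and 1.86 ± 0.66 for *Gm12185* (SD, n = 2). Of the neighbours in this order, *Tgtp1* and *Irgm1* overlapped between their samples and the others did not. In the *Pich*-KO samples the order changed, with *Ifi47* at 975 ± 312, *Igtp* at 956 ± 332, *Tgtp2* at 735 ± 310 and *Irgm1* at 711 ± 125, and the ranges of neighbours overlapped. Within each *Pich*-KO sample *Ifi47* was above *Igtp* (1196 and 1191 in sample 1, 754 and 721 in sample 2) and *Igtp* above *Tgtp2*, while *Tgtp2* was above *Irgm1* in sample 1 and below it in sample 2. *Iigp1* (206 ± 156), *Irgm2* (190 ± 55) and *Tgtp1* (136 ± 90.1) also overlapped each other, and *Gm12185* remained the lowest at 12.9 ± 3.0.

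**Figure D4:**
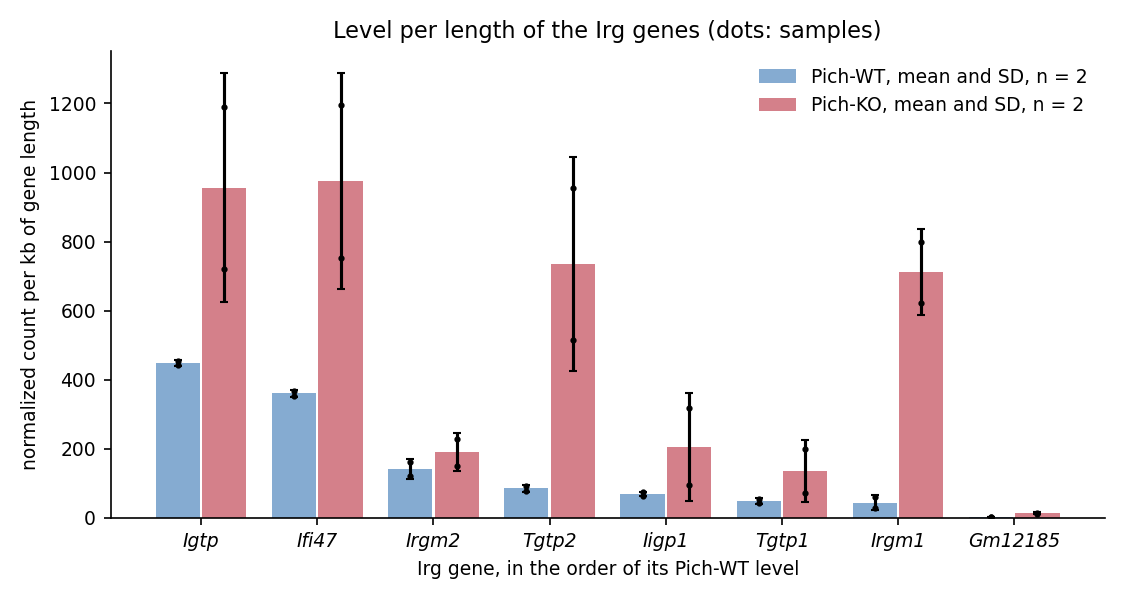
Normalized counts per kb of deposited gene length in *Pich*-WT (blue) and *Pich*-KO (red) samples, as mean and SD (n = 2) with a dot for each sample. *Irgm1* goes from 44.3 to 711 and *Tgtp2* from 85.5 to 735, whereas *Irgm2* goes from 142 to 190.

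Summed over the 8 genes, the level per kb was 4902 and 2944 in the *Pich*-KO and 1133 and 1266 in the *Pich*-WT samples, a 3.27-fold difference of means. Without *Pich*-KO sample 1 it was 2.45-fold. The make-up of that sum differed between the groups. *Irgm1* held 3.63% ± 1.48 of it in the *Pich*-WT and 18.7% ± 3.42 in the *Pich*-KO samples, and *Tgtp2* went from 7.12% ± 0.27 to 18.5% ± 1.38. *Igtp* held 37.4% ± 2.20 and 24.4% ± 0.15, and *Irgm2* 11.8% ± 1.40 and 4.91% ± 0.33. Set by class, the 3 GMS regulators made up 52.8% ± 0.68 of the sum in the *Pich*-WT and 48.0% ± 3.90 in the *Pich*-KO samples, a difference about the size of the spread. Within the GMS class the counts of *Irgm1* were 5.50 and 6.48 times those of *Irgm2* in the *Pich*-KO samples, and 0.378 and 0.577 times in the *Pich*-WT samples.

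Other genes of the family were taken from a list of 12 names, of which *Iigp1b* and *Irgc* were not matched. Of the 10 tested, 4 were higher, 6 did not pass and 0 were lower by limma, by edgeR or at an unadjusted p under 0.05, with a median log2 fold change of 0.78. *Gm12250*, which RefSeq names *Irgb10* and whose product is an effector that attacks bacterial membranes, is listed in the table as a processed pseudogene. It had 1414 and 950 normalized counts in the *Pich*-KO and 212 and 296 in the *Pich*-WT samples. That is a log2 fold change of 2.21 ± 0.24 (SE, limma adjusted p = 0.000625). The log2 fold changes of the other genes that passed were 1.56 for *Gm4951* (0.93 without *Pich*-KO sample 1), 0.92 for *9930111J21Rik2* and 0.63 for *9930111J21Rik1*. Those of the genes that did not pass were 1.67 for *Gm4841*, 0.95 for *F830016B08Rik*, 0.56 for *Irgq*, 0.03 for *Gm12187*, -0.17 for *Irgc1* and -0.31 for *Gm5431*. *Gm12187* and *Irgc1* had at most 9 reads in any sample.

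The genes lie in 3 clusters, whose relative positions are shown in the map of the clusters. That of *Irgm1* to *Ifi47* on chromosome 11 spans 235 kb and holds 9 Irg genes, 5 of them members. The cluster of *Gm12250*, *Igtp* and *Irgm2* on the same chromosome spans 35.0 kb, and that of *Gm4951* to *Iigp1* on chromosome 18 spans 181 kb with 4 Irg genes. Changes within a cluster were unequal, as *Gm5431*, with 136 and 100 against 120 and 175 normalized counts and a log2 fold change of -0.31, lies between *Irgm1* and *Gm12185*. *Igtp* and *Irgm2* begin 62 bases apart in GENCODE M21, although RefSeq places a start of *Irgm2* further on.

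**Figure D5:**
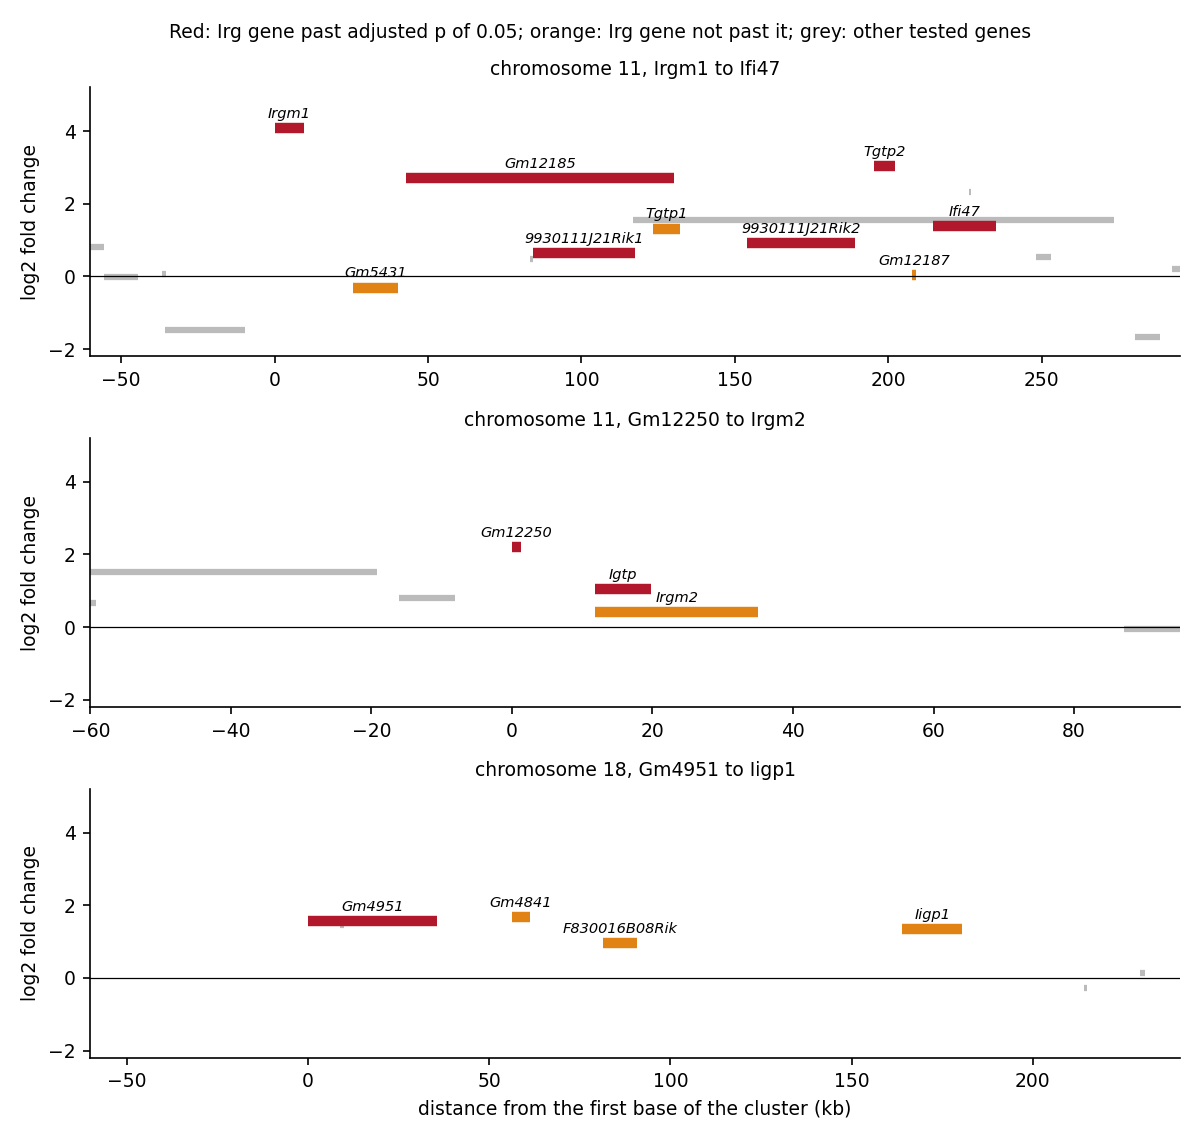
Log2 fold change (*Pich*-KO minus *Pich*-WT) of the genes in and within 60 kb of the 3 Irg clusters, against distance in kb from the first base of the cluster, with bars as long as the annotated genes. Red bars are Irg genes with a limma adjusted p under 0.05, orange bars Irg genes without, and grey bars other tested genes. In the 235 kb cluster *Irgm1* is at 4.08 and *Gm5431* at -0.31.

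Of 20 genes that carry or dampen the interferon signal or respond to it, 6 were higher, 7 were lower and 7 did not pass, with a median log2 fold change of -0.14. Among the ligands, *Ifng* had 15.3 and 9.09 normalized counts in the *Pich*-KO and 57.8 and 101 in the *Pich*-WT samples, and fell by 2.60 on the log2 scale (limma adjusted p = 0.00557). *Ifnb1* had 21 and 12 reads against 8 and 5 and did not pass (limma adjusted p = 0.112). The receptor genes *Ifngr1* (log2 fold change -0.66), *Ifngr2* (-0.55) and *Ifnar1* (-0.56) fell, and *Ifnar2* had -0.27 and did not pass. *Stat2* and *Irf9*, which encode subunits of ISGF3, rose with log2 fold changes of 1.07 and 0.75. *Irf1* (0.08) and *Irf8* (-0.03), further activators of Irg promoters, did not pass.

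A further list of 20 genes covered the machinery that directs Irg proteins to vacuoles, made up of autophagy genes and genes of ubiquitin signalling. Of these, 2 were higher, 6 were lower and 12 did not pass, with a median log2 fold change of -0.07. *Rnf213*, a ubiquitin ligase that is itself interferon-inducible, rose with a log2 fold change of 2.73, and *Traf6*, a ligase that labels vacuoles, with 1.21. The 3 genes that fell most were *Ulk1* (-2.62), the kinase that starts autophagy, and *Map1lc3a* (-1.05, and -0.68 without *Pich*-KO sample 2) and *Map1lc3b* (-0.86), which encode the membrane-bound conjugates of the LC3 family.

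Markers of other cells of the fetal liver moved with the groups, and in bulk samples fewer cells of a type and less RNA per cell cannot be told apart. All 12 macrophage markers were lower in the *Pich*-KO samples, with sums of 7949 to 9191 against 58855 to 60444 normalized counts. All 10 endothelial markers were lower, with sums of 1950 to 3512 against 25794 to 37436. Of 12 erythroid markers 9 were lower (33182 to 36751 against 138771 to 181177), of 10 hepatocyte markers 6 (2798 to 3270 against 4731 to 5295), and of 12 B, T and NK cell markers 5 (1760 to 2535 against 3017 to 3049). Of 12 LSK and stem cell markers 1, *Ly6a*, was higher and 4 were lower, with sums of 20093 to 31810 against 27817 to 29358. No marker was at 0 in both samples of a group. *Ly6a*, the gene of Sca-1, by which the cells were sorted, is also induced by interferon and had a log2 fold change of 1.74. The lineage stain that the study describes for LSK cells covered CD4, CD8, Gr-1, B220 and Ter119. These are antigens of T, B and erythroid cells and granulocytes, and no antigen was listed for macrophages or endothelial cells. Erythroid markers were still counted in every sample, as the sums above show. The part of any of these other cell types in the levels of the Irg genes was not tested.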

How the data were processed

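RNA-seq libraries were made with a TruSeq RNA kit, which does not mark strand, from fetal liver LSK cells (2 *Pich*-KO, 2 *Pich*-WT). The submitters' processing notes name Bowtie 0.12.2, mm8 and mm9 without a role, and the counter and its annotation are not given in the sources used here. The deposited table lists 39186 genes, of which 97.8% of the 39131 found in GENCODE M21 (GRCm38) had its start and end. Its values are a signal that the authors made by dividing read counts by a size factor for each sample. In every sample 100% of values were whole multiples of the value of 1 read, so the reads were recovered (14703215 to 20933919 per sample, which limits the precision of genes with few reads). Replicates differed by more than sampling noise (chi-square per degree of freedom 14.7 and 8.18). The deposited group means, log2 fold changes, p-values and adjusted p-values of the authors' comparison were not used.

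The main test was limma 3.58.1 (R 4.3.3, trend and empirical Bayes) on log2(value + 1) for genes with a mean of at least 1 over the samples, with Benjamini-Hochberg adjustment and a threshold of 0.05. Fold changes on this scale understate those of low genes. The script was tested on simulated data. Alternatives were a pseudocount of 0.1, no filter, at least 10 reads in every sample, a replicate block, edgeR 4.0.16 and DESeq2 1.42.0 on recovered reads, upper-quartile and TMM scaling (reads scaled to the mean library, then log2(value + 1)), no variance trend, *Tgtp1* and *Tgtp2* summed, and each sample left out. After seeing the data, upper-quartile factors over the genes that edgeR keeps, and edgeR with each sample left out, were added. Promoters were RefSeq windows of GRCm38.p6. Named were all members and their listed relatives, interferons, receptors and transcription factors of the signalling list, the genes that changed most in the other lists, the 5 genes nearest in pattern, and *Ercc6l*. *Olfr56*, *Kit*, *Cd34* and neighbours of the clusters were named after their values were seen. Some listed items are not reported here. The members and lists were chosen with earlier results of these data known.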

Additional observations from a re-analysis of the deposited data

How the results depend on the processing

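No member's log2 fold change changed sign. With upper-quartile scaling over all genes, 6362 genes were higher and 1887 lower, with 8 members, 7 other Irg genes, 10 higher and 3 lower interferon signalling genes, and 10 higher and 3 lower vacuole targeting genes. The median of all genes moved by 0.43 there and by 0.02 with factors from the genes that edgeR keeps, which gave 2708 higher, 3034 lower and 5 members. Without a variance trend limma called 0 of all genes, members, other Irg, interferon signalling and vacuole targeting genes, but 7377 genes and 5 members had an unadjusted p under 0.05. Other Irg genes called higher numbered 2 without a filter and 2 with a pseudocount of 0.1. DESeq2 called 5 members, with 6.65% of 39186 genes higher and 8.10% lower. Under the upper-quartile scaling over all genes the balance of calls turned from more lower to more higher for all genes, interferon signalling and vacuole targeting genes.

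With each sample left out, counts ranged from 0 (limma, every fit) to 3685 higher and 3917 lower for all genes, 8 for members, 5 for other Irg genes, 6 higher and 8 lower for interferon signalling genes, and 6 higher and 7 lower for vacuole targeting genes, the upper ends being edgeR's. edgeR without *Pich*-KO sample 1 called 6 vacuole targeting genes higher, and without *Pich*-WT sample 1 it called 3 lower and 2 other Irg genes higher. The members' calls in these fits are left out of the comparison that follows, since a group then held a lone sample. In the other settings 83 fits of the members' log2 fold changes were set against the main limma call. Of these, 69 kept their side of the threshold, 6 lost and 8 gained it.

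A fit with the replicate number as a block called 3122 genes higher and 3874 lower and 7 members, *Tgtp1* and *Iigp1* being added. In the labels same-numbered samples share only a number. Their deviations from the group means had r = 0.0483 across 10452 genes, which are not independent replicates. From a single pair of deviations, this r cannot show whether a batch was shared. *Irgc1* and *Gm12187* had at most 9 reads in any sample, and their differences were not detectable at this depth.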

Other observations

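Neighbours of the Irg clusters within 300 kb were compared with the Irg genes. Of all genes tested, 7.58% were higher and 9.6% were lower by limma, and 18.6% and 20.7% by edgeR. An unadjusted limma p under 0.05 was found for 9294 of 32428 genes in either direction. Around the cluster of *Irgm1* to *Ifi47*, 4 of 20 neighbouring genes tested were higher and 1 was lower, with a median log2 fold change of 0.14. Those that rose were *Rack1* (0.81), a ribosome-associated scaffold, *Zfp62* (0.63), *Psme2b* (0.47), a copy of a proteasome activator gene, and *Gm12188* (2.32), a pseudogene with 12 and 15 reads against 2 and 3 that overlaps *Ifi47*. *Btnl9* fell by 1.72 on the log2 scale. Of the 11 neighbours of this cluster that edgeR kept, 4 were higher and 1 was lower. At an unadjusted limma p under 0.05, 5 of the 20 were higher and 2 were lower. *Olfr56*, which spans *Tgtp1* to *Ifi47* and shares 111 exon bases with *Ifi47*, had 117 and 44.3 normalized counts against 17.2 and 33.0 and did not pass (limma adjusted p = 0.0886). Around the cluster of *Igtp* and *Irgm2*, 4 of 21 were higher and 0 were lower, with a median of 0.25. These were *Gemin5* (1.53), which binds snRNA for assembly of spliceosomal particles, *Larp1* (1.37), a regulator of the translation of ribosomal protein mRNAs, *Mrpl22* (0.81), a mitochondrial ribosomal protein gene, and *Gm12253* (3.04), with 17 and 10 reads against 1 and 1. Of the 11 neighbours of the *Igtp* and *Irgm2* cluster that edgeR kept, 4 were higher and 0 were lower. At an unadjusted limma p under 0.05, 7 of the 21 were higher and 0 were lower. Around the cluster of *Iigp1*, 0 of 8 neighbours were higher or lower by limma, 0 had an unadjusted p under 0.05 and 0 of the 5 tested by edgeR passed, with a median of -0.17.

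The genes outside the 8 whose profile over the 4 samples was nearest to the members' median profile, by Euclidean distance on the centred log2 scale, were *H2-T24* (0.194), *Zfp365* (0.215), *Gm37812* (0.223), *Kcns3* (0.223) and *Vmn2r88* (0.231). *H2-T24*, a nonclassical MHC class I gene, had 736 and 333 normalized counts in the *Pich*-KO and 141 and 173 in the *Pich*-WT samples, with a log2 fold change of 1.66, given as a description because the gene was chosen for this profile. *Zfp365* had 36.0 and 15.9 against 6.25 and 7.0. The other 3 had at most 7 reads in any sample.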
